A study of Mus musculus with 24 samples.

Results

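Heart RNA from mice labelled Acadl KO / Acadvl Het (n = 5) was compared with that from mice labelled Acadl Het / Acadvl Het (n = 3). These made up 8 of the 24 samples of the series. The comparison was chosen with earlier results of these data known, and its samples by their genotype labels. Both groups therefore carried 1 disrupted allele of Acadvl by label, and the difference between them was the second Acadl allele. All were male, aged 14 weeks, fed chow and of a mixed strain that was mostly C57BL/6N with some 129. Polyadenylated RNA of the whole heart was sequenced, 1 library a sample, and the labels give neither whether each sample was its own mouse nor which part of each gene was disrupted. They are called labelled Acadl KO hearts and Acadl Het hearts here. The 4 samples labelled Acadl KO / Acadvl wt and the 4 labelled Acadl Het / Acadvl wt gave the same contrast on intact Acadvl, with none of these 8 libraries in it.

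The enzymes of Acadl and Acadvl are the long-chain and the very long-chain acyl-CoA dehydrogenase, and they begin each round of mitochondrial beta-oxidation, the main source of fuel in the adult heart. When amino acids, haem or protein folding fall short, or mitochondria are stressed, kinases phosphorylate the translation factor eIF2-alpha, general translation slows and translation of the transcription factor ATF4 goes up. ATF4 in turn raises genes for amino acid synthesis and import, tRNA charging and secreted stress hormones, a programme called the integrated stress response. The series title names that response and uncharged tRNA in such hearts, so gene lists on these topics were not independent of what the submitters reported.

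Depth was 34377708 to 43205714 counts in labelled Acadl KO hearts, against 39066639 to 47480070 in Acadl Het hearts. The 3 Acadl Het libraries stood apart in liver transcripts. Alb, serum albumin of hepatocytes, had 0.202, 0.101, 0.121, 1.04 and 0.375 CPM (counts scaled to library sizes adjusted by TMM factors) in labelled Acadl KO hearts, against 158, 19.8 and 39.7 CPM in Acadl Het hearts. Apoa1, a plasma apolipoprotein, had 0.0578, 0.101, 0.461, 0.130 and 0.937 CPM in labelled Acadl KO hearts, against 20.5, 4.13 and 13.4 CPM in Acadl Het hearts. Of 38 hepatocyte markers tested, 0 rose and 35 fell, their summed level was 67.7 to 106 CPM in labelled Acadl KO hearts and 190.2 to 819 CPM in Acadl Het hearts, and 1 of the 40 listed was at 0 in every labelled Acadl KO library. The plots of the check genes show that Acadl Het replicate 1 also stood apart in Rn45s and Lars2. Rn45s, the ribosomal RNA precursor, took 17.3% of that library's counts, at 207259 CPM, while the other 7 libraries had 2645 to 4897 CPM. Lars2, the gene of a mitochondrial tRNA synthetase, had 19584 CPM there and 259.8 to 414 CPM in the other 7 libraries. Libraries of 1 genotype all differed from one another by more than sampling noise, so none was counted as a copy. Each result below was therefore checked with the summed hepatocyte level as a covariate, with the 4 Acadl Het / Acadvl wt hearts in place of the 3 Acadl Het / Acadvl Het hearts, and without Acadl Het replicate 1. The covariate nearly follows the genotype in these 8 libraries, and the 4 other hearts also differ by an Acadvl allele. Those 4 hearts were not free of liver transcripts. Against them the 38 hepatocyte markers had a median log2 change of -2.52, and 1 was called as a fall. What part hepatocyte RNA or the ribosomal RNA precursor had in the calls below that these checks ended was not tested.

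**Figure D1:**
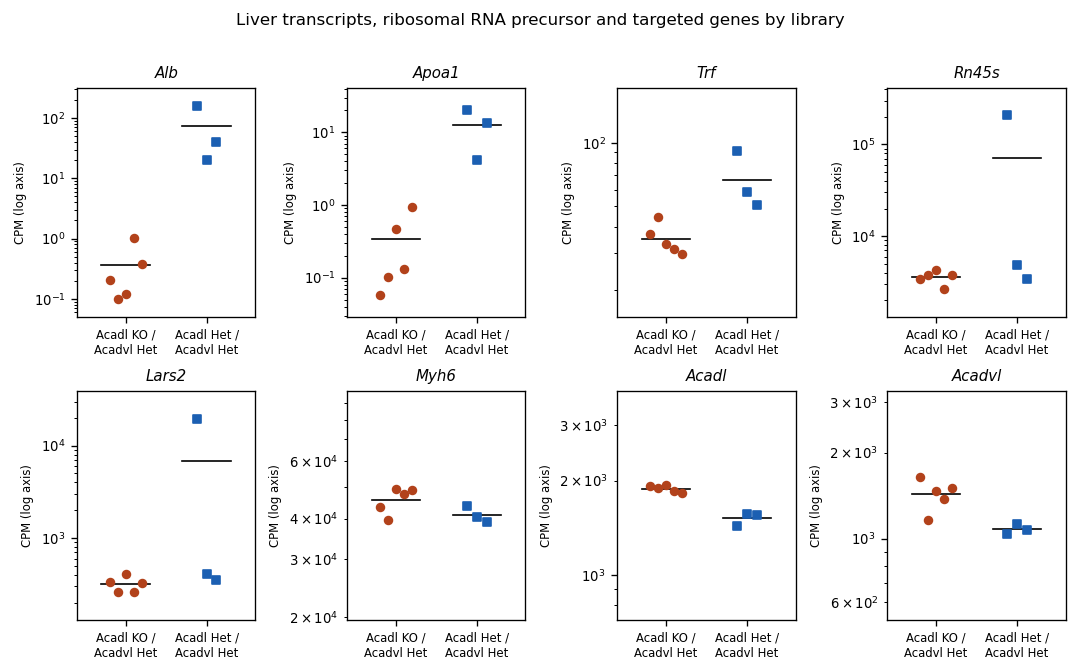
CPM on a log axis for 8 check genes in each labelled Acadl KO / Acadvl Het library (circles, n = 5) and each Acadl Het / Acadvl Het library (squares, n = 3), with bars at the means. Alb and Apoa1 do not overlap between the genotypes, 1 Acadl Het library holds far more Rn45s and Lars2 than the rest, and Acadl is higher in the hearts labelled KO.

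Acadl itself went against its label. It had 1929, 1892, 1933, 1855 and 1827 CPM in labelled Acadl KO hearts, against 1438, 1568 and 1555 CPM in Acadl Het hearts, without overlap and with a log2 change of 0.31 (standard error 0.07, adjusted p by edgeR 0.00113). The counts cover all exons of the gene (chromosome 1, 66830839 to 66863309, mm10), so they do not show whether a deleted part was missing. Every direction below rests on the label. Acadvl (chromosome 11, 70010183 to 70015428, mm10) had 1645, 1164, 1466, 1374 and 1500.1 CPM in labelled Acadl KO hearts, against 1039, 1122 and 1075 CPM in Acadl Het hearts, a log2 rise of 0.41 (standard error 0.12, adjusted p by edgeR 0.0114) between libraries that all carry the Acadvl Het label. Within batch 2 of RNA isolation its log2 change was 0.41, with an edgeR adjusted p of 0.108. Against the Acadl Het / Acadvl wt hearts, which carry 1 more intact Acadvl allele by label, it stood at -0.19 and was not called. Myh6, the main cardiac myosin heavy chain, showed heart muscle in every library, at 39480.5 to 49182 CPM in labelled Acadl KO hearts and 39127 to 43710.4 CPM in Acadl Het hearts. Summed markers of ventricular muscle were 95860 to 116300 CPM in labelled Acadl KO hearts and 102700 to 111400 CPM in Acadl Het hearts, and 1 of 14 rose and 1 fell.

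Of 15804 genes tested, 3173 (20.1%) rose and 3247 (20.5%) fell at an edgeR adjusted p under 0.05, together 40.6%. These shares are the background for every list count below. The 2 genotypes did not overlap in 5211 of these genes (33% of all tested). With log2 changes of at least 2, 93 genes rose and 318 fell, a side on which the hepatocyte genes lie. In bulk tissue a lower level can come from fewer cells of a type or from less RNA per cell, and these cannot be told apart. Of the 6420 calls, 4580 (71.3%) kept their direction and call with the hepatocyte covariate, 5508 (85.8%) with the other controls and 4995 (77.8%) without Acadl Het replicate 1. All 3 checks together left 3946, of which 2130 rose and 1816 fell. Within RNA isolation batch 2, with 3 labelled Acadl KO and 2 Acadl Het hearts, 4218 genes were called, 4050 of them the same calls, and within batch 1, with 2 and 1, 647 were called, 625 of them the same. Scaling by upper quartiles in place of TMM moved the median change by -0.10 on the log2 scale and the share of called genes that rose to 34.1%, against 49.4%. Under that scaling falls outnumbered rises in mitochondrial synthetases (2 rises, 4 falls), peroxisomal genes (3, 8), glycogen genes (3, 6), cardiac stress genes (3, 5) and fibroblast markers (1, 6). The same held for serine and one-carbon folate enzymes (7, 8), mitochondrial fatty acid oxidation (4, 12) and the citric acid cycle (3, 4). In the counts below rises outnumbered falls in all of these lists. Small counts were unsteady: of 49 counts of 1 to 5 list members that rose or fell, 32 moved by over 1.5 times when 1 of the 8 libraries was left out.

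Genes of the integrated stress response rose together. Of 36 ATF4 targets tested, 28 rose, beside 20.1% of all genes, and 1 fell, with a median log2 change of 1.28, beside -0.02 over all genes. Atf4 had 325, 279, 305, 264 and 229 CPM in labelled Acadl KO hearts, against 77.9, 77.3 and 89.4 CPM in Acadl Het hearts. Every labelled Acadl KO library lay above every Acadl Het library, a log2 rise of 1.78 (standard error 0.21, adjusted p by edgeR 7.2e-06). Among the hormones, Gdf15, a cytokine that curbs appetite, had 42.8, 15.2, 18.6, 49.1 and 9.90 CPM in labelled Acadl KO hearts, against 1.59, 2.29 and 2.59 CPM in Acadl Het hearts. It rose by a log2 of 3.65 (standard error 0.67, adjusted p by edgeR 0.000401), without overlap, and replicates 1 and 4 held the most. Fgf21, a fasting hormone known mainly from liver, had 6.99, 1.59, 4.05, 5.36 and 0.906 CPM in labelled Acadl KO hearts, against 0.253, 0.0246 and 0.321 CPM in Acadl Het hearts. Its log2 rise of 4.23 (standard error 1.04, adjusted p by edgeR 0.00325) had an adjusted p of 0.0746 in edgeR with the hepatocyte covariate and of 0.0527 in limma voom.

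Feedback genes and enzymes of the response followed. Trib3, a pseudokinase that restrains ATF4, had 73.3, 46.2, 69.5, 77.2 and 15.1 CPM in labelled Acadl KO hearts, against 7.59, 4.15 and 5.25 CPM in Acadl Het hearts, a log2 rise of 3.32 (standard error 0.59, adjusted p by edgeR 0.000312). Replicate 5 stood lowest of the labelled Acadl KO hearts but above all 3 Acadl Het hearts. Ppp1r15a, whose product brings the eIF2-alpha phosphatase to its substrate, had 128, 166, 153, 119.7 and 134 CPM in labelled Acadl KO hearts and 54.9, 48.7 and 67.3 CPM in Acadl Het hearts, a log2 rise of 1.30 (SE 0.20). Sesn2, a leucine sensor that holds back mTORC1, had 24.7, 20.5, 28.9, 23.5 and 9.59 CPM in labelled Acadl KO hearts and 4.43, 3.69 and 3.55 CPM in Acadl Het hearts, a log2 rise of 2.47 (SE 0.44). Both kept their calls in all 3 checks. Asns, asparagine synthetase, had 45.8, 17.2, 25.9, 31.5 and 22.1 CPM in labelled Acadl KO hearts, against 5.13, 2.73 and 6.24 CPM in Acadl Het hearts, a log2 rise of 2.59 (standard error 0.43, adjusted p by edgeR 0.000154). Chac1, which breaks down glutathione, had 65.3, 65.0, 81.8, 90.4 and 22.1 CPM in labelled Acadl KO hearts, against 10.4, 10.7 and 9.45 CPM in Acadl Het hearts, a log2 rise of 2.69 (SE 0.52). Replicate 5 was again the lowest of the 5, and it was the lowest in 20 of the 28 targets that rose, beside 657 of all 3173 rising genes. The proline synthesis genes Aldh18a1 and Pycr1 rose by log2 values of 1.77 and 1.93. Psph, which makes serine, was the 1 target that fell, with a log2 change of -0.69.

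With the hepatocyte covariate, 17 of the 36 targets rose and 1 fell, with a median log2 change of 1.20, so the sizes stayed near those above while fewer passed the test. The stress transcription factors Atf3 (1.61), Atf5 (1.26) and Ddit3 (1.09, the CHOP factor) rose on the log2 scale and were among those that did not pass with the covariate, at edgeR adjusted p of 0.156, 0.105 and 0.125. Atf3 also lost its call without Acadl Het replicate 1 (log2 1.36), Acadl Het replicate 2 (1.38) or labelled Acadl KO replicate 3 (1.46). Of the 28 ATF4 targets that rose, 16 kept that call in all 3 checks, beside 2130 of all 3173 rising genes. Atf4, Gdf15, Trib3, Chac1, Asns and Mthfd2 were among the 16.

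**Figure D2:**
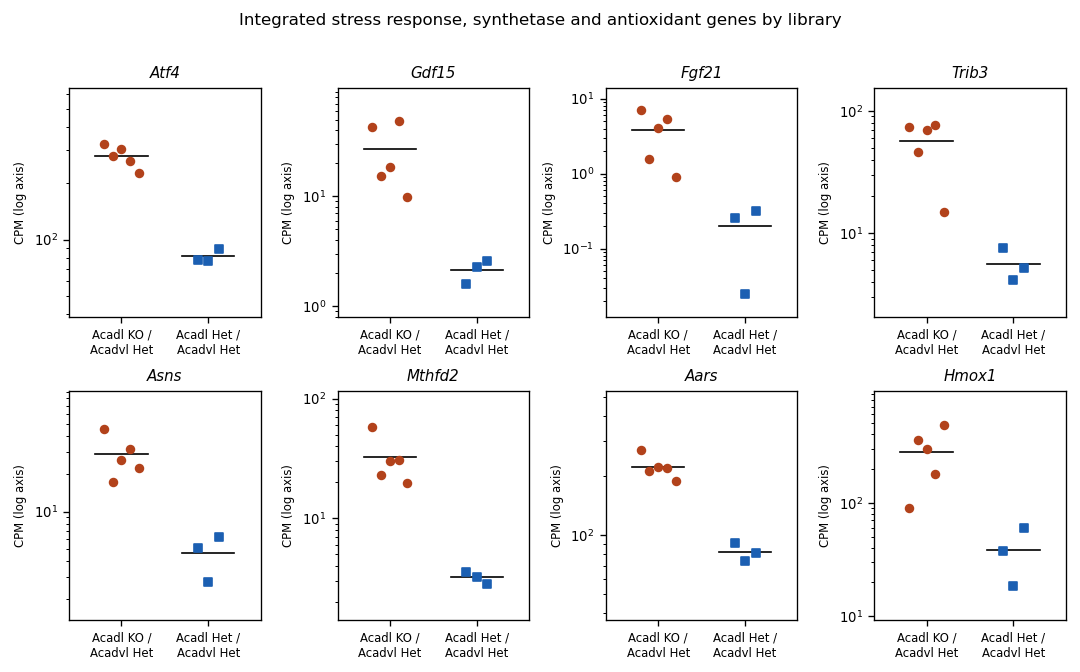
CPM on a log axis for 8 stress genes in each labelled Acadl KO / Acadvl Het library (circles, n = 5) and each Acadl Het / Acadvl Het library (squares, n = 3), with bars at the means. No gene overlaps between the genotypes, and within the labelled Acadl KO hearts Trib3 spans 15.1 to 77.2 CPM while Atf4 spans 229 to 325 CPM.

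The element that ATF4 binds with its C/EBP partners reads TGATGNAA, or TTNCATCA on the other strand. With C at the open base it includes GCAA, part of the C/EBP element. It was searched on both strands in RefSeq promoter windows of GRCm38.p6, which run over 250 bases before and 50 bases after a gene's start. Of the 28 targets that rose, 25 matched a window and 10 of these (40%) held the element, beside 340 of 11668 tested genes with a window (2.91%). Of the 20 risen cytosolic tRNA synthetases, 13 matched and 5 (38.5%) held it. Genes listed as ATF4 targets may be on the list because of this element. Their higher share may thus reflect how the list was made and is no result about these hearts. Gdf15 and Mthfd2, which rose by more than Trib3, were not among the genes found with it. The 6 windows shown are those of the risen genes holding the element that had the largest log2 rises. Each is printed 5′ to 3′ on the gene's own strand, with capitals at the element, and a match describes these letters and is not evidence of binding.
Fgf21 (chr7:45615606-45615645, minus strand): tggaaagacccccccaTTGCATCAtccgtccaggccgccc
Chac1 (chr2:119351033-119351072, plus strand): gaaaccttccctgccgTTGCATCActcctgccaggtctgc
Atf3 (chr1:191183420-191183459, minus strand): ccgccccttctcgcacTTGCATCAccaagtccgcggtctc
Pycr1 (chr11:120643828-120643867, minus strand): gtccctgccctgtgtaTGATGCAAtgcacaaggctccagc
Asns (chr6:7693214-7693243, minus strand): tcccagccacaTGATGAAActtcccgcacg
Trib3 (chr2:152344028-152344057, minus strand): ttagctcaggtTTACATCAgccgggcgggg
Counted from the start of the gene, the element began at position -139 in Fgf21, -193 in Chac1, -110 in Atf3, -103 in Pycr1, -23 in Asns and 15 in Trib3. In Asns and Pycr1 it reads forward, and in the other 4 it reads on the opposite strand.

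Upstream of ATF4, most genes around eIF2-alpha also rose. Of 14 kinase, phosphatase and exchange factor genes, 12 rose and 1 fell, with a median log2 change of 0.42, and all 13 kept their calls in all 3 checks. Ppp1r15a is counted both here and among the ATF4 targets above. Eif2ak4, the kinase GCN2 that senses uncharged tRNA, had 17.6, 16.6, 20.7, 15.1 and 23.0 CPM in labelled Acadl KO hearts and 13.6, 12.7 and 14.6 CPM in Acadl Het hearts, a log2 rise of 0.45 (standard error 0.13, adjusted p by edgeR 0.00822). Gcn1l1, its coactivator, rose by 0.66, and Eif2ak1, the haem-regulated kinase, by 0.33. The kinase of the endoplasmic reticulum, Eif2ak3, was not called at a log2 change of -0.11 (SE 0.13). Eif2ak2, the kinase for double-stranded RNA and itself an interferon gene, fell by 0.52, a call lost without Acadl Het replicate 2 (log2 -0.41, edgeR adjusted p = 0.0712). Eif2b1 (0.79) and Eif2b4 (0.71), subunits of the exchange factor, also rose.

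Cytosolic aminoacyl-tRNA synthetases, which load tRNAs with amino acids, rose in 20 of 24 cases and fell in 0, with a median log2 change of 0.58. Aars, for alanine, had 269, 210.3, 221, 218 and 187 CPM in labelled Acadl KO hearts, against 90.9, 74.1 and 81.3 CPM in Acadl Het hearts, a log2 rise of 1.43 (standard error 0.13, adjusted p by edgeR 2.2e-07). The lowest labelled Acadl KO library was above the highest Acadl Het library by more than the range of either group. Cars for cysteine (1.36), Yars for tyrosine (1.23) and Iars for isoleucine (1.19) came next in log2 change, while Kars, Qars and Wars were not called, at 0.01 (SE 0.06), -0.09 (SE 0.05) and -0.12 (SE 0.09). Replicate 1 was the highest of the 5 labelled Acadl KO hearts in 16 of the 20 and replicate 5 the lowest in 16. With the hepatocyte covariate 15 rose, and the same 15 kept their calls in all 3 checks. Of 17 mitochondrial synthetases, 6 rose and 2 fell, 2 rises kept their calls in all 3 checks, and the falls numbered 0 without Acadl Het replicate 1. The rises numbered 3 without labelled Acadl KO replicate 1, 3 without Acadl Het replicate 2 and 2 without Acadl Het replicate 3. Lars2, at -4.29 on the log2 scale, was at -0.26 without Acadl Het replicate 1 and is not read as a fall.

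Amino acid transporters rose in 10 of 23 cases and fell in 3, a count of rises that dropped to 6 without Acadl Het replicate 2. Slc7a5, the leucine transporter of the plasma membrane, had 68.6, 44.9, 60.9, 61.2 and 27.5 CPM in labelled Acadl KO hearts, against 8.50, 7.44 and 10.3 CPM in Acadl Het hearts, a log2 rise of 2.58 (standard error 0.38, adjusted p by edgeR 5.14e-05), and its partner chain Slc3a2 rose by 1.501. Serine and one-carbon folate enzymes were split, with 7 of 20 up and 6 down, and 3 down without Acadl Het replicate 2. Mthfd2, a mitochondrial folate enzyme, had 58.1, 22.8, 30.1, 30.5 and 19.8 CPM in labelled Acadl KO hearts, against 3.59, 3.24 and 2.84 CPM in Acadl Het hearts. Its log2 rise of 3.35 (standard error 0.44, adjusted p by edgeR 1.82e-05) was without overlap, and Mthfd1l, the next mitochondrial step, rose by 1.46. Phgdh and Psat1, which start serine synthesis, rose by 1.20 and 1.54, but with the hepatocyte covariate their edgeR adjusted p were 0.269 and 0.0516. Of transsulfuration and glutathione genes, 6 of 17 rose and 1 fell, and Cth, which makes cysteine, rose by 2.05 (SE 0.48).

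Targets of NRF2, the transcription factor of the antioxidant response, rose in 16 of 28 cases and fell in 0, with a median log2 change of 0.38, and 13 kept their calls in all 3 checks. Hmox1, haem oxygenase, had 89.2, 359, 297, 180.5 and 484 CPM in labelled Acadl KO hearts, against 37.9, 18.6 and 59.6 CPM in Acadl Het hearts. It rose by a log2 of 2.88 (standard error 0.64, adjusted p by edgeR 0.00178), without overlap, and here replicate 5 was the highest and replicate 1 the lowest. Srxn1, which repairs peroxiredoxins, had 212, 130.0, 129.8, 118 and 147 CPM in labelled Acadl KO hearts, against 54.5, 31.4 and 51.9 CPM in Acadl Het hearts, a log2 rise of 1.68 (SE 0.36). Osgin1 (1.89), Txnrd1 (1.16, thioredoxin reductase), Gclm (1.12) and Gclc (1.05, both subunits of the enzyme that starts glutathione synthesis) also rose on the log2 scale. Gsta1, at 2.43, has close copies that can share its reads. Nfe2l2, which encodes NRF2, was not called at 0.24 (SE 0.10).

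The antioxidant response element core TGACNNNGC, or GCNNNGTCA on the other strand, stood in 7 of the 13 matched windows of risen NRF2 targets (53.8%), beside 1968 of 11668 tested genes with a window (16.9%). Here too the genes were listed as targets of the factor, so the higher share may reflect how the list was made. The letters of the core overlap the AP-1 site TGACTCA. The core stood in 7 of 25 risen ATF4 targets (28%) and 2 of 22 risen nucleolar genes (9.09%), and the ATF4 element stood in 0 of the 13 NRF2 windows. 3 windows with the core are shown, those of the risen NRF2 targets holding it that had the largest log2 rises. They are again from RefSeq on GRCm38.p6, 5′ to 3′ on the gene's strand, with capitals at the core, which reads on the opposite strand in each.
Srxn1 (chr2:152105542-152105570, plus strand): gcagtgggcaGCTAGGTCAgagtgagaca
Txnrd1 (chr10:82859098-82859138, plus strand): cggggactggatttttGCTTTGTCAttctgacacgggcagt
Gclm (chr3:122245407-122245447, plus strand): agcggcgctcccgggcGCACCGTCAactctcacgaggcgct

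Genes that build ribosomes in the nucleolus rose in 28 of 30 cases and fell in 0, with a median log2 change of 0.62, and 24 kept their calls in all 3 checks. Gnl3, nucleostemin, had 85.8, 73.3, 78.2, 66.4 and 72.9 CPM in labelled Acadl KO hearts, against 25.8, 24.5 and 32.4 CPM in Acadl Het hearts, a log2 rise of 1.45 (standard error 0.17, adjusted p by edgeR 4.13e-06). Rrp12, a ribosome export factor, had 172, 175, 182, 171 and 172 CPM in labelled Acadl KO hearts and 63.4, 46.1 and 69.8 CPM in Acadl Het hearts, a log2 rise of 1.55 (SE 0.21). Neither overlapped between the genotypes, and Rrp12 spanned only 171 to 182 CPM over the 5 labelled Acadl KO hearts. Cytosolic ribosomal proteins were called in 0 of 33 cases at an edgeR adjusted p under 0.05, with a median log2 change of 0.07. Against the Acadl Het / Acadvl wt hearts 7 of them rose. Translation factors rose in 12 of 31 cases and fell in 0, with Eif3a (0.93) and Eif4ebp1 (0.90, a brake on cap binding) leading in log2 change, and all 12 kept their calls in all 3 checks. Mitochondrial ribosomal proteins rose in 15 of 29 cases, and in 9 without Acadl Het replicate 1 or 3, with a median log2 change of 0.19.

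Mitochondrial chaperones and proteases rose in 9 of 17 cases and fell in 0, and the 9 kept their calls in all 3 checks. Grpel2, a cofactor of the matrix chaperone Hsp70, had 58.6, 32.5, 44.9, 59.0 and 43.8 CPM in labelled Acadl KO hearts, against 22.8, 18.2 and 18.4 CPM in Acadl Het hearts, a log2 rise of 1.27 (standard error 0.16, adjusted p by edgeR 7.86e-06). Afg3l2, an inner membrane protease, rose by 0.64, Hspe1, the small partner of Hsp60, by 0.58, and Lonp1, the matrix protease, by 0.39. Replicate 2 was the lowest of the labelled Acadl KO hearts in 8 of the 9. Atad3a, an inner membrane protein of mitochondria that is outside the lists, had 203, 164, 192, 173 and 200.1 CPM in labelled Acadl KO hearts and 71.2, 67.3 and 77.9 CPM in Acadl Het hearts, a log2 rise of 1.37. Chaperones of the endoplasmic reticulum went the other way, with 9 of 22 down and 4 up. Pdia4, a protein disulfide isomerase, had 11.9, 11.9, 11.1, 13.2 and 7.37 CPM in labelled Acadl KO hearts and 20.9, 24.7 and 23.9 CPM in Acadl Het hearts, a log2 change of -1.06 (SE 0.18). Herpud1, which takes part in removing misfolded proteins, rose by 1.55 (SE 0.25), and Hspa5, the chaperone BiP, was not called at 0.13 (SE 0.13).

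Genes that answer to fatty acids, take them up and store them rose. Of 30 PPAR-alpha targets, which respond to fatty acids, 18 rose and 3 fell, with a median log2 change of 0.46, and 16 of the rises kept their calls in all 3 checks. Plin5, a lipid droplet coat of oxidative tissue, had 656, 621, 689, 675 and 718 CPM in labelled Acadl KO hearts, against 355, 293 and 258 CPM in Acadl Het hearts, a log2 rise of 1.16 (standard error 0.16, adjusted p by edgeR 1.79e-05), without overlap. Acot2, a mitochondrial thioesterase whose close copies can share reads, rose by 1.03, Ppara itself by 0.78, and Pdk4, the kinase that turns off pyruvate dehydrogenase, by 0.69. Among the falls were Cyp4a10 and Cyp4a14, liver enzymes with close copies, and with the hepatocyte covariate 0 of the 30 fell. Cyp4a14 had 0.0289, 0.0252, 0, 0.312 and 0.219 CPM in labelled Acadl KO hearts and 0.582, 3.34 and 19.6 CPM in Acadl Het hearts. Acadl Het replicate 1, the highest Acadl Het library in Alb, was the lowest of them in Cyp4a14. Most Cyp4a14 was in Acadl Het replicate 3. Without that library the log2 changes were -3.52 for Cyp4a10 and -4.05 for Cyp4a14, and neither was called. The part of liver RNA in these falls was not tested. Fatty acid uptake and lipid droplet genes rose in 15 of 29 cases and fell in 1, and 14 rises kept their calls in all 3 checks. Fabp4, a fatty acid carrier abundant in capillary endothelium, had 1384, 1493, 1801, 1152 and 2349.7 CPM in labelled Acadl KO hearts and 732, 699 and 775 CPM in Acadl Het hearts, a log2 rise of 1.15 (SE 0.20). Gpihbp1, which anchors lipoprotein lipase in capillaries, rose by 1.04 and Cd36, a fatty acid transporter, by 0.47.

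Within mitochondrial fatty acid oxidation, 5 of 28 genes rose and 4 fell, beside 20.1% and 20.5% of all genes. The median log2 change was -0.06, and Acadl and Acadvl were among the rises. Cpt1b, the muscle carnitine transferase, rose by 0.48 (SE 0.09), while Acadm, Hadha and Hadhb, which act on medium and long chains, were not called, at log2 changes of -0.20 (SE 0.08), 0.17 (SE 0.08) and 0.07 (SE 0.10). Upper-quartile scaling gave 4 rises and 12 falls in this list, and 8 genes fell without labelled Acadl KO replicate 1 or against the Acadl Het / Acadvl wt hearts, and 1 with the hepatocyte covariate. Of 20 peroxisomal genes 6 rose and 5 fell, and 3 rose without Acadl Het replicate 3 and 3 fell without Acadl Het replicate 1 or 2. Ehhadh, the peroxisomal bifunctional enzyme, had 90.2, 81.3, 63.2, 102 and 86.2 CPM in labelled Acadl KO hearts and 60.1, 42.6 and 41.5 CPM in Acadl Het hearts, a log2 rise of 0.81 (standard error 0.16, adjusted p by edgeR 0.000609).

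In glycogen metabolism 5 of 21 genes rose and 3 fell, beside 20.1% and 20.5% of all genes, with a median log2 change of 0.04. A few of them changed strongly, in opposite directions. Phkg1, the muscle form of the phosphorylase kinase catalytic subunit, which switches on glycogen breakdown, had 3.64, 4.21, 6.48, 5.10 and 6.56 CPM in labelled Acadl KO hearts, against 52.8, 52.7 and 79.7 CPM in Acadl Het hearts. Its log2 change of -3.57 (standard error 0.18, adjusted p by edgeR 5.76e-11) was without overlap, and the highest labelled Acadl KO library was far below the lowest Acadl Het library. Ugp2, which makes the UDP-glucose that glycogen is built from, had 764, 542, 636, 683 and 689.5 CPM in labelled Acadl KO hearts, against 272, 255 and 215 CPM in Acadl Het hearts, a log2 rise of 1.44 (standard error 0.15, adjusted p by edgeR 1.02e-06). The branching enzyme Gbe1 rose by 1.00 and muscle glycogen synthase Gys1 by 0.69. Ppp1r3b and Ppp1r3d, which bring protein phosphatase 1 to glycogen, stood at -1.67 and -1.26.

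Elsewhere in carbon metabolism the share called differed between lists, beside 20.1% of all genes that rose and 20.5% that fell. Glycolysis and glucose uptake had 10 of 27 rises and 4 falls, with 6 rises left without Acadl Het replicate 2 or 3 and 2 falls without replicate 1. Pfkfb2, the cardiac enzyme that makes the activator of phosphofructokinase, rose by 1.09, while Ldha, lactate dehydrogenase A, fell by 0.73 on the log2 scale. Pyruvate dehydrogenase genes had 6 of 15 rises and 3 falls, among them its phosphatase Pdp1 at -0.78. Breakdown of branched-chain amino acids had 0 rises and 7 falls of 22, of which 4 were left without Acadl Het replicate 1 and 2 kept their calls in all 3 checks, while 13 fell under upper-quartile scaling. Ppm1k, the phosphatase that activates the branched-chain ketoacid dehydrogenase, had 71.6, 65.4, 75.2, 76.5 and 80.3 CPM in labelled Acadl KO hearts and 167, 155 and 117 CPM in Acadl Het hearts, a log2 change of -0.97 (SE 0.17). Of the citric acid cycle 6 of 23 rose and 1 fell, and 3 rose and 4 fell under upper-quartile scaling. Nuclear-encoded subunits of oxidative phosphorylation had 0 rises and 1 fall of 38, and 0 rises and 8 falls under that scaling.

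Many channels and receptors of heart muscle fell. Of 32 ion and water channel genes 16 fell, beside 20.5% of all genes, and 4 rose, with a median log2 change of -0.49, and 12 of the falls kept their calls in all 3 checks. Aqp4, a water channel, had 0.0867, 0.0504, 0.340, 0.0781 and 0.344 CPM in labelled Acadl KO hearts, against 6.78, 13.2 and 9.69 CPM in Acadl Het hearts. This was a log2 change of -5.78 (standard error 0.35, adjusted p by edgeR 8.31e-10), without overlap. Gja1, the connexin of the gap junctions between muscle cells, had 121, 100.7, 92.3, 146 and 70.7 CPM in labelled Acadl KO hearts, against 330.0, 383 and 463 CPM in Acadl Het hearts, a log2 change of -1.89 (standard error 0.30, adjusted p by edgeR 9.62e-05). Kcnj5, a subunit of the potassium channel that acetylcholine opens, had 20.6, 19.4, 16.8, 21.2 and 9.69 CPM in labelled Acadl KO hearts, against 69.3, 81.5 and 62.8 CPM in Acadl Het hearts, a log2 change of -2.02 (SE 0.30), and its partner Kcnj3 stood at -1.79. Neither Gja1 nor Kcnj5 overlapped between the genotypes. Kcnd2, of the transient outward current, stood at -1.32, Hcn4, a pacemaker channel, at -1.16, and Cacnb2, a calcium channel subunit, at -1.49. The potassium channel Kcnd3 (-0.00, SE 0.11) and the calcium channel Cacna1c (0.03, SE 0.11) were not called. Kcnc1, a fast potassium channel known from neurons, had 10.5, 8.11, 3.66, 8.28 and 7.94 CPM in labelled Acadl KO hearts and 1.59, 0.811 and 0.740 CPM in Acadl Het hearts, a log2 rise of 2.87 (standard error 0.34, adjusted p by edgeR 4.37e-06).

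**Figure D3:**
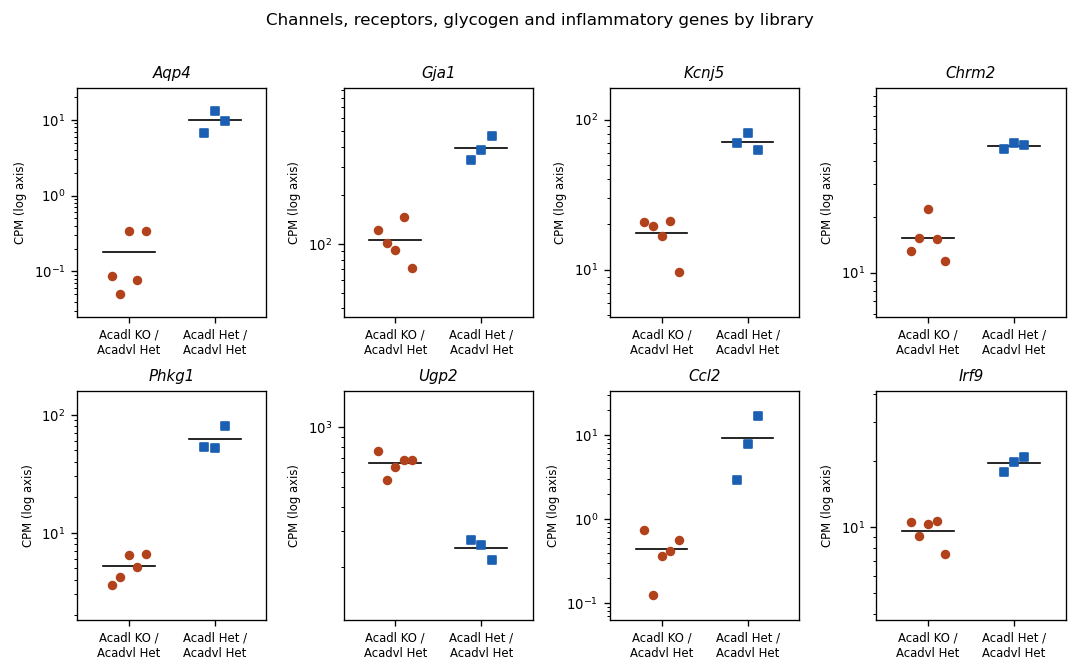
CPM on a log axis for 8 channel, receptor, glycogen and inflammatory genes in each labelled Acadl KO / Acadvl Het library (circles, n = 5) and each Acadl Het / Acadvl Het library (squares, n = 3), with bars at the means. Ugp2 is higher in the labelled Acadl KO hearts and the other 7 genes are lower, with no overlap in any of the 8.

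The receptor that drives that acetylcholine-gated channel moved the same way. Chrm2, the M2 muscarinic receptor, had 13.1, 15.4, 22.1, 15.2 and 11.5 CPM in labelled Acadl KO hearts, against 46.9, 49.97 and 49.1 CPM in Acadl Het hearts, a log2 change of -1.65 (standard error 0.15, adjusted p by edgeR 2.08e-07). Adra1b, an alpha-1 adrenergic receptor, had 16.1, 16.6, 17.7, 16.3 and 23.5 CPM in labelled Acadl KO hearts, against 45.3, 64.1 and 53.4 CPM in Acadl Het hearts, a log2 change of -1.59 (SE 0.15), and Adrb1, the main cardiac beta receptor, stood at -0.90. In all, 7 of 15 receptor genes fell and 2 rose, and 4 fell without Acadl Het replicate 2. Ednrb, the endothelin B receptor, rose to 93.2, 104, 93.9, 56.1 and 135 CPM in labelled Acadl KO hearts, against 24.4, 24.4 and 26.0 CPM in Acadl Het hearts, a log2 change of 1.95 (SE 0.21). Kcnj5 and Kcnj3 also mark atrial muscle. Of 13 atrial markers 4 fell, 7 without labelled Acadl KO replicate 3, and 0 rose. Their median log2 change was -1.55, and their summed level was 233.0 to 2078 CPM in labelled Acadl KO hearts and 530.1 to 599 CPM in Acadl Het hearts. The 2078 CPM were in labelled Acadl KO replicate 2, where 1 of these markers, Nppa, had 1922 CPM. Myl7, the atrial myosin light chain, had 5.23, 9.74, 25.1, 1.95 and 1.34 CPM in labelled Acadl KO hearts and 26.5, 33.4 and 27.3 CPM in Acadl Het hearts and was not called (edgeR adjusted p = 0.088). The part of atrial tissue in the channel falls was not tested. Calcium cycling genes had 5 falls and 1 rise of 17, beside 20.5% and 20.1% of all genes. The pump Atp2a2 was not called at -0.16 (SE 0.09). Among cardiac stress genes, 3 of 20 rose and 2 fell, counts below those shares. None fell without Acadl Het replicate 1 or 3 or labelled Acadl KO replicate 1 or 4. Nppa, the atrial natriuretic peptide, was not called, at 151, 1922, 258, 343 and 131 CPM in labelled Acadl KO hearts and 249.8, 216 and 217 CPM in Acadl Het hearts, with 1 library far above the rest.

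Interferon genes and many chemokine and cytokine genes were lower. Of 26 interferon response genes 22 fell and 0 rose, with a median log2 change of -0.84, and 17 kept their calls in all 3 checks. Irf9, a DNA-binding factor of the type I interferon response, had 10.5, 9.12, 10.2, 10.6 and 7.53 CPM in labelled Acadl KO hearts, against 17.8, 19.8 and 20.7 CPM in Acadl Het hearts, a log2 change of -1.02 (standard error 0.17, adjusted p by edgeR 0.000133), without overlap. Psmb9, an immunoproteasome subunit, stood at -1.34 and Ifi44 at -1.55. Replicate 5 was the lowest labelled Acadl KO library in 17 of the 22, beside 1205 of all 3247 falling genes. Of 25 chemokines and cytokines 15 fell and 0 rose, with a median log2 change of -1.44. Their summed level overlapped, at 387 to 797 CPM in labelled Acadl KO hearts and 412 to 624 CPM in Acadl Het hearts. Ccl2, which draws in monocytes, had 0.751, 0.126, 0.364, 0.416 and 0.562 CPM in labelled Acadl KO hearts, against 2.91, 7.86 and 16.8 CPM in Acadl Het hearts, a log2 change of -4.39 (standard error 0.87, adjusted p by edgeR 0.000714). Its neighbour Ccl7 stood at -5.02 (SE 0.92), and for both the 3 Acadl Het libraries spread over several fold. Within RNA isolation batch 2 alone, 7 chemokines fell and 1 rose.

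Most markers of other cell types were not called, but several of these counts grew with the hepatocyte covariate. Over all 15804 genes 20.1% rose and 20.5% fell, and with the covariate 2710 rose and 2523 fell. Of 15 macrophage and leukocyte markers 2 rose and 3 fell, with the covariate 0 rose and 6 fell, 0 rose without Acadl Het replicate 1 and 1 fell without replicate 2. Their summed level was 292.5 to 432 CPM in labelled Acadl KO hearts and 276.9 to 383 CPM in Acadl Het hearts. Lymphocyte markers summed to 1.19 to 2.47 CPM in labelled Acadl KO hearts and 2.99 to 4.05 CPM in Acadl Het hearts, where 1 of 8 fell. With the covariate 5 of the 8 fell, with a median log2 change of -2.32, and 0 fell without Acadl Het replicate 2 or 3. Fibroblast markers had 2 rises and 1 fall of 12, and with the covariate 1 rise and 7 falls, with a median log2 change of -0.70, beside -0.27 without it. Endothelial markers had 2 rises and 2 falls of 12, with 0 rises left under the covariate. Smooth muscle and pericyte markers had 0 rises and 2 falls of 12, and adipocyte and erythroid markers were called in 0 of 6 and 0 of 7 cases. Epicardial markers fell in 3 of 8 cases, at 21.2 to 48.9 CPM summed in labelled Acadl KO hearts and 38.2 to 70.6 CPM in Acadl Het hearts, and 0 of them fell with the covariate, against the Acadl Het / Acadvl wt hearts or without Acadl Het replicate 3. Nerve and Schwann cell markers fell in 5 of 9 cases, and in 3 without Acadl Het replicate 1 or 3 or labelled Acadl KO replicate 2, with a summed level of 19.15 to 31.35 CPM in labelled Acadl KO hearts and 23.0 to 28.6 CPM in Acadl Het hearts. Skeletal muscle markers had 1 rise and 1 fall of 9 and lung markers 1 and 1 of 3. The part of these cells in the interferon, chemokine and channel results was not tested.

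Many of the largest falls were of hepatocyte genes, with a median log2 change of -6.08 over the 38 tested, and the changes below are outside that list. Ffar4, a receptor for long-chain fatty acids, had 1.88, 1.33, 1.55, 0.391 and 5.06 CPM in labelled Acadl KO hearts, against 0.0759, 0.123 and 0.0493 CPM in Acadl Het hearts, a log2 rise of 4.59 (standard error 1.10, adjusted p by edgeR 0.00233). Lrrc10b (3.53), Mapk8ip2 (3.31, a scaffold of the JNK pathway) and Amica1 (3.22, a leukocyte adhesion molecule) were also low in Acadl Het hearts. Irs2, an adaptor of the insulin receptor, led the FOXO and atrophy genes, at 96.6, 75.3, 132, 74.8 and 81.7 CPM in labelled Acadl KO hearts, against 18.2, 18.8 and 19.4 CPM in Acadl Het hearts, a log2 rise of 2.30 (standard error 0.56, adjusted p by edgeR 0.00359). In that list 8 of 18 rose and 0 fell, with 5 rises left without Acadl Het replicate 2 and 4 in all 3 checks. Among the falls, Pirt, a regulator of TRP channels known from sensory neurons, had 0.462, 1.21, 0.825, 0.833 and 0.469 CPM in labelled Acadl KO hearts, against 10.7, 9.02 and 11.7 CPM in Acadl Het hearts, a log2 change of -3.75 (standard error 0.42, adjusted p by edgeR 3.64e-06). Cacng6, a calcium channel gamma subunit, stood at -3.73, Gal3st3, a sulfotransferase, at -3.32 and B3galt2, a galactosyltransferase, at -3.52. Of 22 hypoxia-inducible factor targets 4 rose and 6 fell, beside 20.1% and 20.5% of all genes, and 1 rose without Acadl Het replicate 2. Ankrd37 fell by 3.43 and Egln3, an oxygen-sensing prolyl hydroxylase, had 9.39, 10.9, 12.1, 12.1 and 11.9 CPM in labelled Acadl KO hearts, against 47.8, 45.5 and 41.4 CPM in Acadl Het hearts, a log2 change of -1.99 (standard error 0.14, adjusted p by edgeR 8.6e-09).

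The next lists stand beside 20.1% of all genes that rose and 20.5% that fell. The main counts of immediate early and matrix genes did not exceed these shares. Of 30 autophagy and lysosome genes 9 rose and 4 fell, 5 rose without Acadl Het replicate 2 and 2 fell without replicate 1. Sqstm1, a cargo receptor of autophagy, had 1588, 1943, 1588, 1623 and 1484 CPM in labelled Acadl KO hearts and 858, 724 and 868 CPM in Acadl Het hearts, a log2 rise of 1.01 (SE 0.14), and Fnip2, a partner of folliculin, rose by 1.29. Genes of the circadian clock rose in 7 of 20 cases and fell in 2. Per1, which represses the clock's activators, had 145, 175, 206, 129.7 and 231 CPM in labelled Acadl KO hearts and 90.8, 84.7 and 80.1 CPM in Acadl Het hearts, a log2 rise of 1.07 (SE 0.27), and Ciart, another repressor, rose by 1.73, while Dbp, a direct output, was not called at -0.25 (SE 0.44). No label gives the hour at which hearts were taken. Cholesterol genes had 3 rises and 8 falls of 21, with 4 falls left without Acadl Het replicate 1 and 1 rise without Acadl Het replicate 3 or labelled Acadl KO replicate 2, and Dhcr7, which closes the synthesis of cholesterol, stood at -0.87 (SE 0.16). Immediate early genes had 2 rises and 4 falls of 20, but 4 rises and 1 fall without Acadl Het replicate 3. Matrix genes had 5 rises and 5 falls of 29, with 1 fall left without Acadl Het replicate 3, 2 without replicate 2 and 3 without labelled Acadl KO replicate 5. Lox, which crosslinks collagen, rose to 23.9, 54.0, 43.5, 20.9 and 67.5 CPM in labelled Acadl KO hearts, against 12.3, 11.2 and 14.6 CPM in Acadl Het hearts, a log2 change of 1.72 (SE 0.43).

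**Figure D4:**
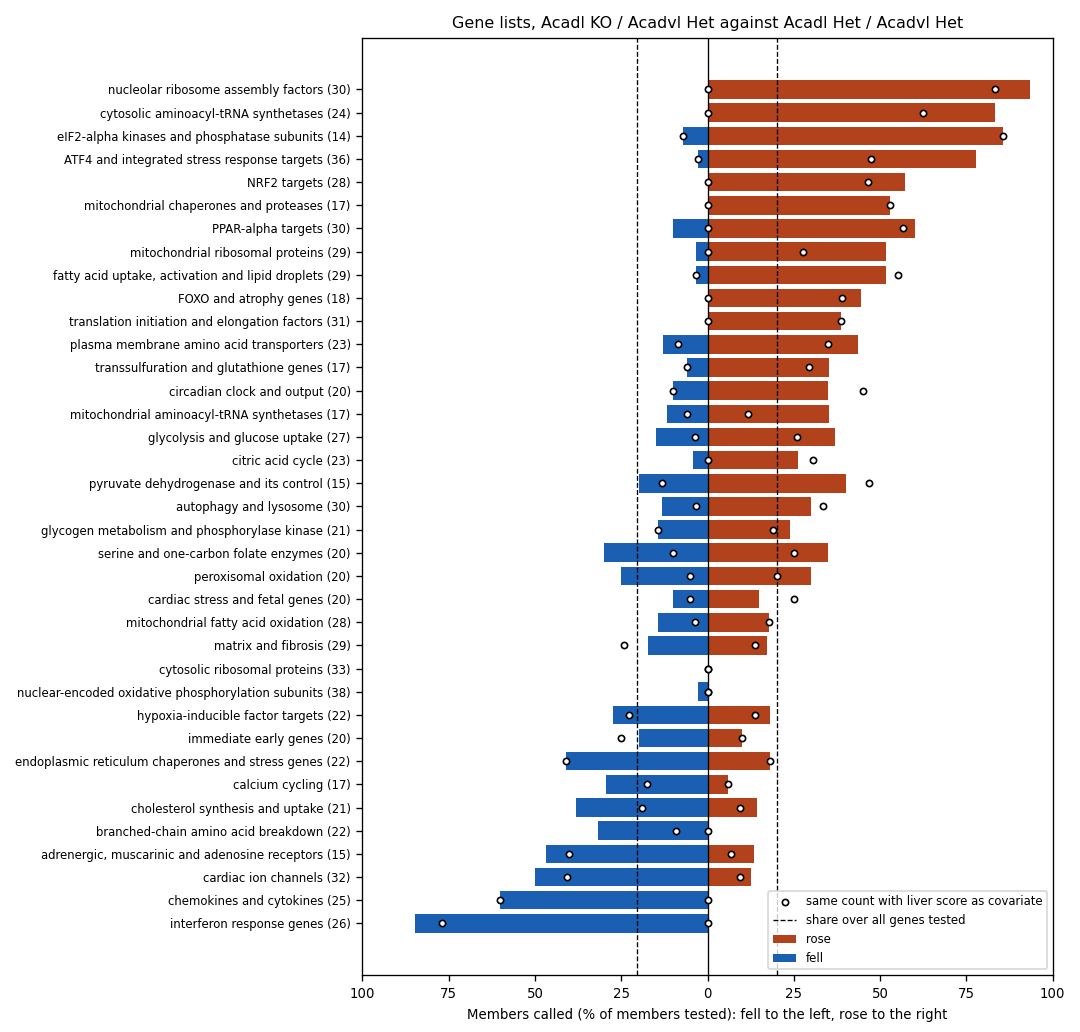
Share of each gene list's tested members (number in brackets) that rose, to the right, or fell, to the left, in labelled Acadl KO / Acadvl Het hearts against Acadl Het / Acadvl Het hearts, in percent. Dashed lines mark the shares over all genes, 20.1% and 20.5%, and open circles the same counts with the hepatocyte covariate, which left nucleolar genes at 25 of 30 rises and interferon genes at 20 of 26 falls.

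On intact Acadvl, the libraries labelled Acadl KO / Acadvl wt (n = 4) against Acadl Het / Acadvl wt (n = 4) were fitted in the same model. There, 18.1% of genes rose and 16.7% fell, 5506 in all. Of the 6420 calls on Acadvl Het, 4233 were called in the same direction on Acadvl wt, which was 65.9% of the one list and 76.9% of the other, and 2 were called in opposite directions. The log2 change on Acadvl Het and on Acadvl wt was 1.78 and 1.76 for Atf4, 1.43 and 1.38 for Aars, -3.57 and -2.92 for Phkg1 and -5.78 and -4.70 for Aqp4. By list, 28 of 36 ATF4 targets rose on Acadvl Het and 25 on Acadvl wt, 22 and 18 of 26 interferon genes fell, and 16 and 15 of 32 channel genes fell. Hepatocyte genes differed, with 35 of 38 down on Acadvl Het and 0 on Acadvl wt, where Acadl KO / Acadvl wt replicate 2 held the highest hepatocyte score of its 8 libraries.

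A test of the difference between these changes called 0 genes at an edgeR adjusted p under 0.05, where 817 (5.17%) had an unadjusted p under 0.05 and the smallest adjusted p was 0.0638. limma voom also called 0, DESeq2 called 100, and edgeR called 45 with no batch term and 93 without Acadl Het / Acadvl Het replicate 2. The genes with the smallest p were mostly liver genes. Ehhadh had 90.2, 81.3, 63.2, 102 and 86.2 CPM in labelled Acadl KO hearts and 60.1, 42.6 and 41.5 CPM in Acadl Het hearts on Acadvl Het, and 129, 153, 125 and 131 CPM in labelled Acadl KO hearts and 30.1, 35.2, 46.7 and 39.3 CPM in Acadl Het hearts on Acadvl wt, log2 changes of 0.81 and 1.83. Their difference was -1.02 on the log2 scale (SE 0.22, unadjusted p = 0.000149, edgeR adjusted p = 0.0737), and it did not pass the threshold. Angptl7, a secreted protein, stood at 2.72 on Acadvl Het and 0.62 on Acadvl wt, a difference with an edgeR adjusted p of 0.786.

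**Figure D5:**
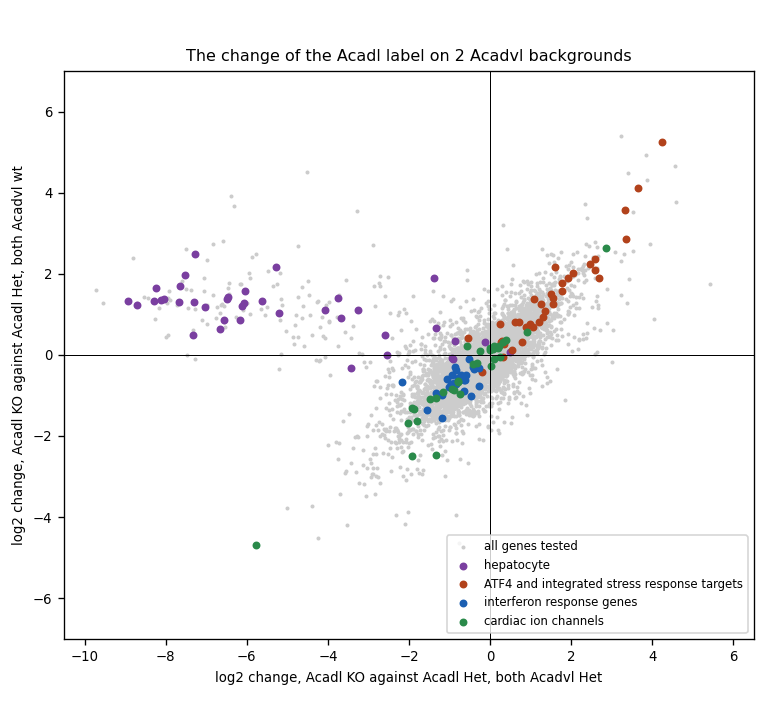
Log2 change of every tested gene for labelled Acadl KO against Acadl Het, on Acadvl Het (x axis) and on Acadvl wt (y axis), with hepatocyte, ATF4, interferon and channel genes coloured. ATF4 targets lie at upper right and interferon and channel genes mostly at lower left, while hepatocyte genes lie far to the left with changes near or above 0 on the y axis.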

How the data were processed

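Polyadenylated RNA of 24 heart samples was sequenced, and the 8 labelled Acadl KO / Acadvl Het or Acadl Het / Acadvl Het are reported. The deposited values are raw counts per gene symbol, 1 file a library. Per the file headers, featureCounts 1.5.2 counted primary alignments on UCSC mm10 exons without regard to strand, giving a read that overlaps several genes to each; STAR 2.5.1b and featureCounts 1.5.3 are named in the submitters' processing notes. Overlapping and antisense genes thus share reads, and close copies (Cyp4a, Gsta and Acot families) are uncertain.

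All 24 libraries were fitted with edgeR 4.0.16 in R 4.3.3 (filterByExpr, which left 15804 genes, TMM factors, robust quasi-likelihood), with terms for genotype and for the RNA isolation batch. Tests were two-sided and adjusted by Benjamini-Hochberg over all genes, at 0.05. CPM use TMM factors, and standard errors come from the F statistic. Alternatives were limma 3.58.1, DESeq2 1.42.0, other factors, filters, controls and batches, and each library left out. No label says that samples were separate mice, so p-values measure the spread between these samples, which may be technical. Sequences are from RefSeq. The fits were tested on simulated counts.

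The groups and the 51 gene lists were chosen with earlier results of these data known. The naming rule takes the targeted genes, the 10 largest rises and falls (called, at least 1 CPM on average, no overlap, no predicted or hepatocyte gene, still called with the hepatocyte covariate), up to 4 called members of each list, up to 2 that moved against their list, and liver checks, 200 genes in all; the text names 136, of which 87 are by the rule and 49 were chosen after their values were seen. Some genes are not reported here.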

Additional observations from a re-analysis of the deposited data

Results flagged for a closer look

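In 6 genes named above, 1 of the 5 labelled Acadl KO libraries lay so far from the other 4 that its gap, as a share of the whole range of the group, passed Dixon's critical value of 0.71. Chance flags about 1 group in 20, and 136 genes were looked at. Nppa, the atrial natriuretic peptide, reached 1922 CPM in replicate 2, where the lowest of the 5 was 131 CPM. Mthfd2 was highest in replicate 1, at 58.1 CPM, Ldha in replicate 5, at 432 CPM, Nfe2l2 in replicate 3, at 115 CPM, and Adra1b in replicate 5, at 23.5 CPM. Kcnd2 was lowest in replicate 2, at 3.93 CPM, where the highest was 10.2 CPM. Of these genes, Mthfd2, Ldha, Adra1b and Kcnd2 were called in the comparison, and none lost its call when any 1 library was left out.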

How the results depend on the processing

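Over the settings that compared all 8 libraries in both batches, 5177 to 6741 genes were called, against 6420: 5177 with the 8 libraries of the 2 genotypes alone, 6741 in DESeq2, and between these with no batch term, RLE or upper-quartile factors, no filter, limma voom, no Rn45s, no hepatocyte genes or the hepatocyte covariate (5233). With the Acadl Het / Acadvl wt hearts as controls 6867 were called. Leaving out 1 library gave 4592 to 6454 calls, the fewest without Acadl Het replicate 2. Within batch 2 there were 4218 calls and within batch 1, with 2 labelled Acadl KO hearts and 1 Acadl Het heart assumed to vary like the other hearts of its batch, 647; fewer samples were tested in both. The number of genes whose change differed between Acadvl Het and Acadvl wt, 0, became 45 with no batch term and 100 in DESeq2, and 0 to 93 when 1 library was left out, with 93 without Acadl Het / Acadvl Het replicate 2, 58 without Acadl KO / Acadvl wt replicate 1, 37 without replicate 4 of that genotype and 12 without Acadl Het / Acadvl wt replicate 4; the cause was not tested. Of 136 genes named in the text, 119 were called, and 103 of these kept direction and call under every alternative but batch 1. Acadvl turned to -0.19 (edgeR adjusted p = 0.166) against the Acadl Het / Acadvl wt hearts, which carry 1 more intact Acadvl allele by label. With the hepatocyte covariate 12 called genes no longer passed. No paired analysis was possible because replicate numbers only follow the order of the samples, and the opening number of the titles, whose meaning is not given, is shared across the 2 genotypes by 1 pair of hearts alone. At this depth genes under about 1 CPM rest on few counts in some libraries, and 3 Acadl Het hearts limit the precision of every change.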

Other observations

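Some genes outside the lists also separated the 2 genotypes, and they were chosen after their values were seen. Mpv17, an inner membrane protein of mitochondria, had 34.9, 33.7, 34.2, 37.4 and 38.5 CPM in labelled Acadl KO hearts, against 66.9, 72.8 and 70.1 CPM in Acadl Het hearts, a log2 change of -0.97 (standard error 0.07, adjusted p by edgeR 8.6e-09). Klhl13, an adaptor of a ubiquitin ligase, had 9.01, 10.5, 11.7, 11.5 and 10.6 CPM in labelled Acadl KO hearts and 28.8, 35.2 and 32.1 CPM in Acadl Het hearts, a log2 change of -1.59 (SE 0.12). Angpt1, a ligand that keeps vessels quiet, had 6.47, 10.8, 6.28, 8.12 and 2.53 CPM in labelled Acadl KO hearts and 43.7, 61.5 and 51.7 CPM in Acadl Het hearts, a log2 change of -2.92 (SE 0.38). Ctla4, known as an inhibitory receptor of T cells, stood at -2.24 on the log2 scale (SE 0.19) and H19, an imprinted RNA, at -2.52 (SE 0.42). None of these overlapped between the genotypes.

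Among rises of the same kind, Sik1, a salt-inducible kinase, had 320.5, 170.5, 241, 158 and 276 CPM in labelled Acadl KO hearts and 59.2, 47.8 and 46.7 CPM in Acadl Het hearts, a log2 rise of 2.23 (standard error 0.38, adjusted p by edgeR 0.000186). Trp53inp1, a p53-induced gene, rose by 2.66 (SE 0.52), and Dusp4, a phosphatase of MAP kinases, by 2.63 (SE 0.46). Each of the 8 genes named here kept its call with the hepatocyte covariate, with the Acadl Het / Acadvl wt hearts as controls and without Acadl Het replicate 1. Genes close to Acadl on chromosome 1 were called about as often as elsewhere: within 2 Mb of it, 5 of 11 were called (45.5%), beside 40.6% of all genes.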
